A study of Danio rerio with 4 samples.

Results

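The genes described here are 73 of the 756 genes in the authors' table that had at most 60 reads summed over both libraries of double negative cells and more than that in the Venus positive, mCherry negative cells. They were selected on these read counts, so the difference between the groups is the reason they are shown, and the calls and fold changes given for them are a description and no independent test. The titin genes and all symbols beginning with slc, itg, col or lam were left out beforehand, which removed *ttn.1*, *itga4*, *itga9* and *slc2a11b* from the genes that met the limit. The comparison asks which transcripts of the *apln* expressing head cells outside the endothelium had few reads in the double negative cells of the head.

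The libraries came from heads of zebrafish larvae, labelled Wildtype, at 48 hpf. All larvae carried TgBAC(apln:Venus-PEST), in which regulatory sequence of the ligand gene *apln* drives a short-lived yellow fluorescent protein, and Tg(kdrl:Hsa.HRAS-mCherry), which marks endothelial cells. After FACS, 2 libraries were made from cells positive for Venus and negative for mCherry, and 2 from cells negative for both, and mCherry positive cells entered neither group. The labels call the cell type of both groups mixed, and no source says if replicate libraries were of different clutches or sorting runs. Venus positive libraries carry the numbers 3 and 4 in the table, which are used below as names only. The spread between libraries may therefore be technical.

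Apelin is a secreted peptide whose receptors act in endothelial cells, and the study looked for the cells outside the vessels that make it. Connective tissue and mesenchymal cells of the head secrete fibrillar matrix, proteoglycans and the enzymes that trim them, and growth factors and their inhibitors are held in that matrix. Double negative cells are a mixture of the remaining cells of the head, which holds epidermis, blood, muscle and nervous tissue. The roles given below are those known for the genes or for their mammalian counterparts. In bulk libraries, fewer cells of a type and less RNA per cell cannot be told apart.

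The level of the 73 genes in the Venus positive cells was low to moderate. Their reads summed over the 2 Venus positive libraries ran from 52 to 733 with a median of 232, against 0 to 60 with a median of 22 in the double negative libraries. Divided by the authors' size factors, the mean normalized read count per gene in Venus positive cells lay between 30.0 and 409.9 with a median of 119. The other 412 genes that were higher in Venus positive cells had a median of 1155, so by reads the selected genes lay towards the low end of the higher genes. Together they took 1.02% and 0.833% of the reads of all listed genes in Venus positive libraries 3 and 4, against 0.0817% and 0.0655% in double negative replicates 1 and 2. The limit on double negative reads favours genes with few reads, so nothing more is read from these levels and shares. The listed genes summed to between 876579 and 1175560 reads per library. The full sequencing depth is not stated.

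In all 73 genes both Venus positive libraries lay above both double negative libraries, which holds for 64.2% of the 756 genes of the table. Since the selection itself required more reads in Venus positive than in double negative cells, nothing is read from this count. The same holds for the edgeR fit across the table, in which all 754 genes tested were called in 1 direction or the other at a Benjamini-Hochberg adjusted p under 0.05. In it, 72 of the 73 genes passed the filter on low counts, and these 72 were called higher, as were 64.2% of the 754, which the selection had fixed beforehand. The gene below that filter, 10 counts in 2 libraries, was *itih6*. When the adjustment was widened to the 23016 genes the authors tested, 37 of the 72 were called higher, against 29.7% of the 754. Genes outside the table had no p-value here and were counted as not different. The median log2 fold change of the 72 was 3.70, beside 2.204 for the other 412 higher genes and 1.85 for all genes tested, and the limit on double negative reads favours large values. With RLE or TMM scaling over the listed genes, which puts the middle of this selected table near no change, the median of the 72 was 1.84 or 1.90 and 25 or 27 of them were called higher.

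**Figure D1:**
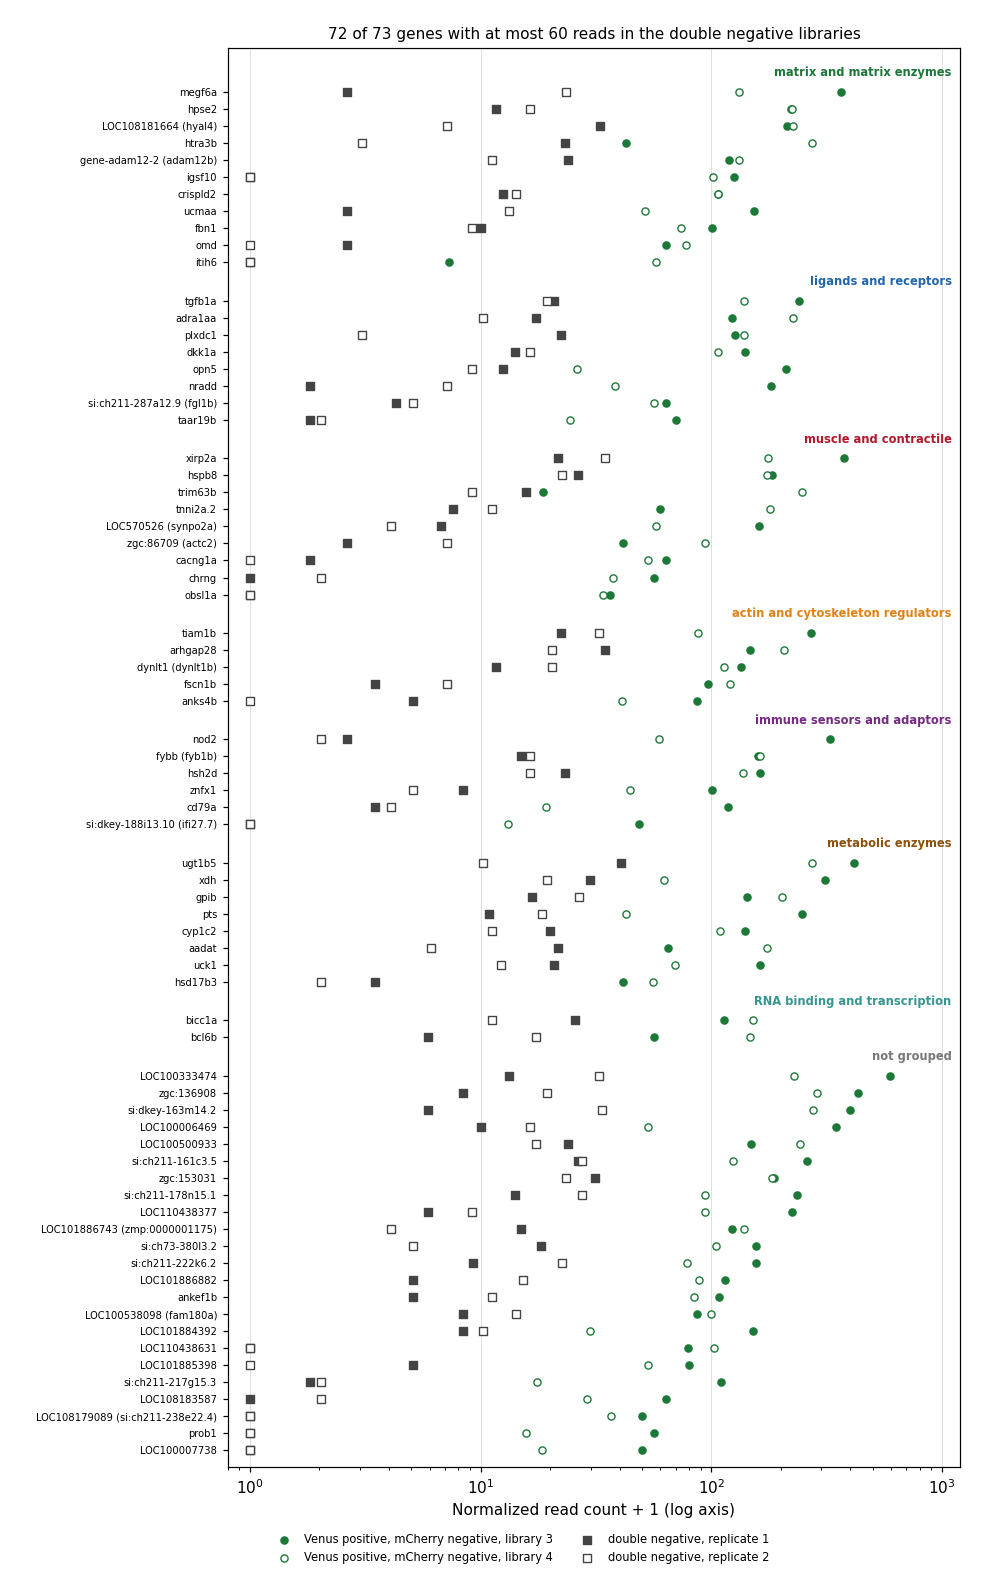
Normalized read count plus 1 (log axis) of 72 of the 73 genes in the 2 Venus positive, mCherry negative libraries (circles) and the 2 double negative libraries (squares), arranged by what the genes encode. Every gene shown has its circles to the right of its squares, but the distance is short for *trim63b* in library 3 (17.6, against 14.8 in double negative replicate 1), and 8 genes have both squares at 0 reads.

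A limit set in reads is not a limit on the level of a transcript, because short transcripts yield fewer reads. On the authors' mean TPM, which corrects for length and has no replicate values here, the 73 genes stood between 0.49 and 103 in Venus positive cells (median 6.49) and between 0 and 11.6 in double negative cells (median 0.395). In double negative cells 42 of them lay under 0.5 TPM, but 18 reached 1 TPM or more, so those 18 cannot be called nearly silent. *dynlt1* (NCBI gene 565740), which encodes a light chain of the dynein motor, had the highest double negative value, 11.6 TPM from only 32 reads, beside 103 TPM in Venus positive cells. *xirp2a* had 0.25 TPM from 58 reads. Of the other 412 higher genes, 389 had 1 TPM or more in double negative cells and 4 lay under 0.5 TPM. The limit on double negative reads favours low TPM in those cells, so nothing is read from this difference.

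**Figure D2:**
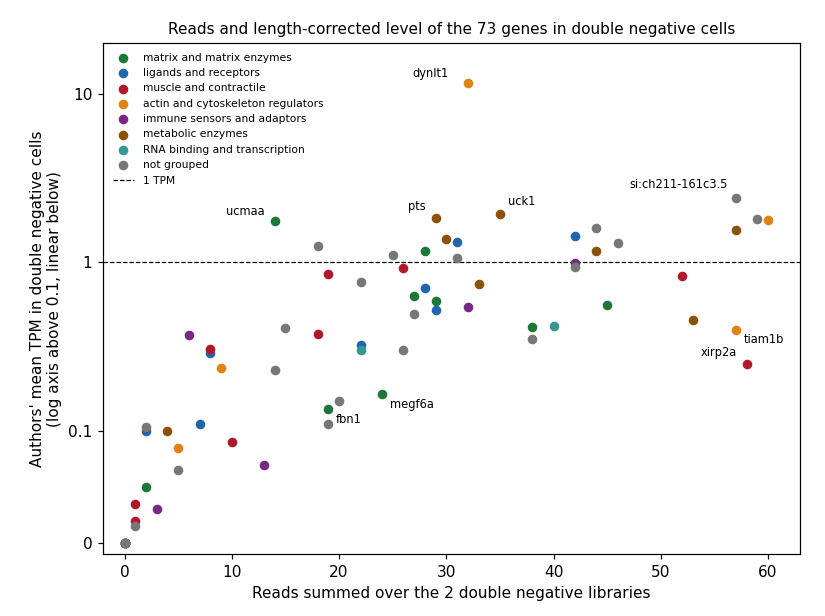
Reads summed over the 2 double negative libraries (horizontal axis) and the authors' mean TPM in double negative cells (vertical axis, log above 0.1 and linear below) for the 73 genes, coloured by what they encode. The 8 genes without reads lie on top of each other at the lower left, 18 genes reach the dashed line at 1 TPM, and *dynlt1* stands at 11.6 TPM with 32 reads.

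The limit did not separate distinct sets of genes. Just inside stood *xirp2a* with 58 double negative reads, *zgc:153031* with 59 and *arhgap28*, which encodes a GTPase-activating protein, with 60. Just outside stood *LOC101885004* with 63, *LOC100535622* with 64 and *cytl1*, which encodes a secreted cytokine-like protein, with 65. The 3 genes inside had 501, 358 and 353 reads in the Venus positive libraries, against 351, 613 and 686 in the 3 genes outside. The ratios overlapped as well, at 9.73, 6.84 and 6.63 inside and 6.28, 10.8 and 11.9 outside. Each group ratio here and below is of reads summed over a group's libraries and divided by the sum of its size factors. Such ratios can differ from those of the normalized counts printed beside them.

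In 8 of the 73 genes no read was counted in either double negative library. These are *igsf10*, *itih6*, *obsl1a*, *si:dkey-188i13.10* (named *ifi27.7* in RefSeq), *prob1*, *LOC110438631*, *LOC108179089* and *LOC100007738*. A count of 0 allows up to 3 reads, here taken over the group, and ratios against these genes are given as lower bounds from that floor. These bounds leave out counting error in the Venus positive reads and lie above the lower ends of the exact intervals. With these 8, 14 genes had 0 reads in at least 1 of the 2 double negative libraries, and 7 genes had 1 to 3 double negative reads in all. Intervals below are exact 95% Clopper-Pearson intervals on the reads, and as the libraries carry no molecular identifiers they cover counting error only.

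*igsf10* (NCBI gene 100329456) encodes a very large secreted protein with leucine-rich and immunoglobulin repeats. It had 124 and 101 normalized read counts in Venus positive libraries 3 and 4 and 0 reads in both double negative libraries. The difference was at least 80.8-fold from the floor of 3 reads, and its exact interval began at 65.1. Of the 8 genes without double negative reads it had the most Venus positive reads, and its 2 libraries differed little for counts of this size (ratio of library 4 to library 3 0.809, interval 0.613 to 1.07). The authors' mean for it was 1.58 TPM, a low value for its reads. *LOC110438631*, which the files do not annotate further, followed with 77.9 and 102 normalized counts in the Venus positive libraries. It was at least 67.2-fold higher from the same floor, and its exact interval began at 54.1.

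The other 6 had fewer reads. Their lower bounds from the floor ran from 19.5-fold for *si:dkey-188i13.10* to 30.0-fold for *LOC108179089*, and *obsl1a* and *itih6* lay between them at 24.8 and 26.3. The exact intervals of *si:dkey-188i13.10* and *LOC108179089* began at 15.3 and 23.9. *obsl1a* (796577) encodes obscurin-like 1, a linker of the cytoskeleton, and had 35.2 and 33.0 normalized counts in the Venus positive libraries. *itih6* (565328), of the inter-alpha-trypsin inhibitor heavy chain family, had 6.28 in library 3 and 56.4 in library 4, so almost all of its reads came from a single library. Of these 8 genes, 4 had estimated counts that were not whole numbers in the Venus positive libraries (*LOC110438631*, *LOC108179089*, *LOC100007738* and *prob1*), which RSEM gives when reads are shared between similar loci. Such shared reads occurred in 15 of the 73 genes (20.5%), against 23 of the other 412 higher genes (5.58%), and the values of those genes are uncertain to that extent.

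**Figure D3:**
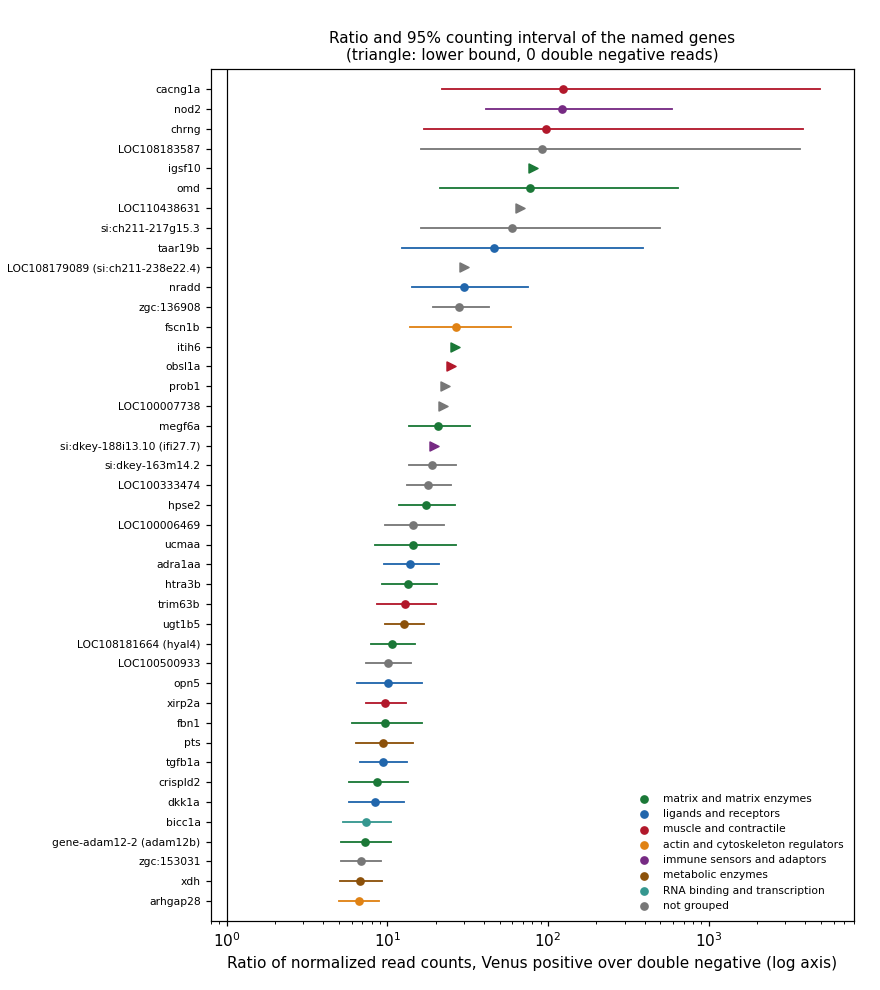
Ratio of normalized read counts, Venus positive over double negative (log axis), for the 42 genes named by rule, with 95% counting intervals. Triangles are lower bounds for the 8 genes without double negative reads, and the widest intervals, up to 4940 for *cacng1a*, belong to genes with a single double negative read.

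The largest group by role comprised 11 genes of the extracellular matrix and its enzymes. Besides *igsf10* and *itih6* it held the structural proteins and proteoglycans *fbn1*, *omd*, *ucmaa*, *megf6a* and *crispld2*. *omd* (557913), osteomodulin, a small leucine-rich keratan sulfate proteoglycan known from bone, had 62.8 and 76.4 normalized read counts in Venus positive libraries 3 and 4, against 1.64 and 0 in double negative replicates 1 and 2. With only 2 double negative reads in all, its ratio of 77.8 has an interval of 21.1 to 648. *fbn1* (100330961), which encodes the microfibril protein fibrillin 1, had 99.3 and 72.9 normalized read counts in Venus positive cells and 9.04 and 8.18 in double negative cells, a ratio of 9.67 (interval 5.995 to 16.5). Both groups were tight in *fbn1*, with means of 86.1 ± 18.7 and 8.61 ± 0.607 (SD, n = 2 libraries each).

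*ucmaa* (100037325), a secreted Gla-rich protein of cartilage, was less even. Its normalized read counts were 152 and 50.3 in the Venus positive libraries, against 1.64 and 12.3 in the double negative libraries. *megf6a* (565108), which encodes a secreted protein with many EGF-like repeats, had 363 and 131 against 1.64 and 22.5. In both genes the libraries differed within each group, but the lower Venus positive library stayed well above the higher double negative one. *crispld2* (100535149), a secreted protein with cysteine-rich and LCCL domains, had 106 normalized read counts in each Venus positive library and 11.5 and 13.3 in the double negative libraries, a ratio of 8.60 (interval 5.74 to 13.4).

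Among the matrix enzymes, *hpse2* (562573) was even between the libraries of each group. It encodes heparanase 2, a relative of heparanase that binds heparan sulfate but does not cleave it, and stood at 221 and 223 normalized counts in the Venus positive libraries and 10.7 and 15.3 in the double negative libraries, a ratio of 17.4 (interval 11.9 to 26.5). *LOC108181664* (RefSeq *hyal4*), of the hyaluronidase family, had 211 and 226 against 32.0 and 6.13. *gene-adam12-2* (RefSeq *adam12b*), a membrane-anchored metalloprotease, had 118 and 131 against 23.004 and 10.2. The Venus positive libraries were close to each other in all 3 genes, whereas the few double negative reads of *LOC108181664* and *gene-adam12-2* fell mostly in replicate 1.

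*htra3b* (573378), a secreted serine protease of the HtrA family, behaved otherwise. It had 41.5 normalized read counts in Venus positive library 3 and 273 in library 4, against 22.2 and 2.05 in double negative replicates 1 and 2. The lower Venus positive library was thus less than 2-fold above the higher double negative one. Its fitted log2 fold change was 3.66 over all libraries, 1.73 without Venus positive library 4, when the gene was no longer called, and 6.18 without double negative replicate 1.

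For context, 27 of 136 genes in a list of matrix proteins outside the collagens and laminins were in the table, of which 26 were higher and 1 lower in Venus positive cells. Of those 26, 4 (*ucmaa*, *fbn1*, *crispld2* and *omd*) were under the limit of 60 reads. In a list of 129 proteases and inhibitors, 24 genes were higher and 2 lower, and 2, *gene-adam12-2* and *htra3b*, were under the limit. Beside these lists, 64.2% of all genes of the table were higher. The median log2 fold changes of these lists were 2.45 and 2.495, beside 1.85 over all genes tested and 2.39 over the higher genes tested. Most higher genes of these 2 lists had more reads in double negative cells than the limit allowed. The same holds for all 485 higher genes, of which 73 were selected, so nothing is read from this. The lists did not hold *igsf10*, *itih6*, *megf6a*, *hpse2* and *LOC108181664*, which were also under the limit.

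The group of ligands and receptors held 8 genes. The 3 secreted ones are *tgfb1a*, *dkk1a* and *si:ch211-287a12.9* (RefSeq *fgl1b*, a fibrinogen-like protein). *tgfb1a* (359834), the ligand Tgf-beta 1, had 239 and 138 normalized counts in the Venus positive libraries, against 19.7 and 18.4 in the double negative libraries. The ratio was 9.36 (interval 6.79 to 13.2). All 14 Bmp and Tgf-beta pathway genes in the table were higher in Venus positive cells, as were 64.2% of all genes of the table. *tgfb1a*, selected for being higher, was the only one of the 14 under the limit, beside 73 of all 485 higher genes. *dkk1a* (799377), a secreted inhibitor of Wnt signalling, had 138 and 106 normalized read counts in Venus positive cells, against 13.15 and 15.3 in double negative cells, a ratio of 8.43 (interval 5.78 to 12.7).

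The paralog *dkk1b* was also in the table, with more reads in both groups. It stood at 263 and 448 normalized counts in the Venus positive libraries and 64.1 and 76.7 in the double negative libraries, with a log2 fold change of 2.34 beside 3.09 for *dkk1a*. *dkk1a* had its higher value in library 3 and *dkk1b* in library 4. Of 63 Wnt pathway genes listed, 8 were in the table. All 8 were higher in Venus positive cells, as were 64.2% of all genes of the table. *dkk1a*, selected for being higher, was alone under the limit, beside 73 of all 485 higher genes. The other 7 included the ligand *wnt11r*, the receptors *fzd2* and *ror1* and the inhibitors *notum1b* and *nkd1*.

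Of the receptors, *nradd* (572204) encodes a membrane protein with a death domain related to the p75 neurotrophin receptor. It had 180 normalized read counts in Venus positive library 3 and 37.3 in library 4, against 0.822 and 6.13 in the double negative libraries. The ratio was 29.9 (interval 14.2 to 75.5). *nradd* was the only one of 22 neurotrophin and neurotrophin receptor genes in the table, and the others were not analysed here. *opn5* (564181), an opsin sensitive to ultraviolet and violet light, showed the widest gap of this group between the Venus positive libraries, with 210 in library 3 and 25.2 in library 4, against 11.5 and 8.18 in double negative cells. Without library 3 its log2 fold change was 1.34 and the gene was no longer called, against 3.55 with all libraries.

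*adra1aa* (798498), an alpha1-adrenergic receptor, went the other way, with 122 in library 3 and 226 in library 4, against 16.4 and 9.20 in double negative cells (ratio 13.9, interval 9.49 to 21.0). The related *adra1ba* was in the table above the limit, at 431 and 414 against 84.6 and 103. Of 141 G protein-coupled receptor genes listed, 6 were higher and 1 was lower in Venus positive cells, beside 64.2% higher over the table. *adra1aa*, selected for being higher, was under the limit. The list did not hold *opn5* and *taar19b*, which also encode receptors of this class and were under it. *plxdc1*, a transmembrane protein with a plexin repeat, had 126 and 137 normalized counts in the Venus positive libraries, against 21.4 and 2.05 in the double negative libraries. *taar19b* (100333348), a trace amine-associated receptor of a multigene family, had few reads, some of them shared between loci, with 69.1 and 23.4 against 0.822 and 1.02, a ratio of 46.2 (interval 12.4 to 388).

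The third group held 10 genes of muscle and the contractile apparatus. *cacng1a* (322013), a subunit of the calcium channel of skeletal muscle, had 62.8 and 52.1 normalized read counts in Venus positive libraries 3 and 4 and 0.822 and 0 in the double negative libraries. *chrng* (100536659), the gamma subunit of the acetylcholine receptor of embryonic muscle, had 55.3 and 36.4, against 0 and 1.02. Each had a single double negative read, so the ratios of 124 and 96.9 have intervals of 21.8 to 4940 and 16.9 to 3872. For both genes the counting interval of the ratio between the Venus positive libraries included equality.

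Other muscle genes differed between the Venus positive libraries. *trim63b* (394070), a ubiquitin ligase of striated muscle, had 17.6 normalized read counts in library 3 and 246 in library 4, against 14.8 and 8.18 in double negative replicates 1 and 2. In library 3 it was therefore close to the double negative level, and the 14 reads counted there were fewer than the 18 in double negative replicate 1. Without library 4 its log2 fold change was 0.60, against 3.51 with all libraries, and it was no longer called. *tnni2a.2*, troponin I of fast muscle fibres, had 59.1 and 179 in the Venus positive libraries, against 6.57 and 10.2 in double negative cells, and *zgc:86709* (RefSeq *actc2*), a muscle actin, 40.2 and 92.8, against 1.64 and 6.13. These 3 genes were higher in library 4 beyond counting error, and the other 7 genes of the group were higher in library 3, by more than counting error in 3 of them.

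*xirp2a* (559746) had the most reads of the group. It encodes a Xin repeat protein that binds actin at the ends of muscle fibres, and had 376 and 175 normalized counts in the Venus positive libraries, against 20.5 and 33.7 in the double negative libraries. Its ratio was 9.73 (interval 7.41 to 13.0). *LOC570526* (RefSeq *synpo2a*), an actin-binding protein of the Z disc, had 160 and 56.4, against 5.75 and 3.07. *hspb8*, a small heat shock protein, was even, with 182 and 174 against 25.5 and 21.5.

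Skeletal muscle markers listed for context, which include *chrng* of this group, were mixed in direction. Of 83 such markers listed, 7 were in the table, 5 of them higher in Venus positive cells, as were 64.2% of all genes of the table. The 5 were *ttn.1*, *ttn.2*, *sgcd*, *actc1a* and *chrng*, the last one selected for being higher, and lower were *pvalb2* and *myf5*, with 0 to 1.26 normalized counts in the Venus positive libraries. The summed level of the 7 was 2415 and 3261 normalized read counts in Venus positive libraries 3 and 4 and 817 and 720 in the double negative libraries. The other 76 markers, *myod1*, *myog* and *ckma* among them, were not analysed here. Of 24 tendon and ligament markers, 8 were in the table and all 8 were higher, beside the same 64.2% of all genes. *xirp2a* was one of the 8 and was selected for being higher. The summed level of the 8 was 57522 and 56615 against 5246 and 5940. *fmoda* alone had 34502 and 40001 normalized counts in the Venus positive libraries, against 1711 and 1672 in the double negative libraries. Whether muscle fibres or their fragments in the sort had a part in the levels of these genes was not tested.

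The 5 regulators of actin and the cytoskeleton ran from genes with almost no double negative reads to the least different of all. *fscn1b* (570314), a fascin that bundles actin filaments in filopodia, had 95.5 and 119 normalized counts in the Venus positive libraries, against 2.46 and 6.13 in the double negative libraries. The ratio was 26.7 (interval 13.8 to 59.1), and the Venus positive libraries differed by less than counting error. Of 31 actin bundling and filopodia genes listed, 3 were in the table, all higher, beside 64.2% of all genes of the table. *fscn1b* was selected for being higher. The other 2, *fmnl3* and *actn1*, lay well above the limit with 361 and 1084 double negative reads. *anks4b*, which is known from the microvilli of epithelia, had 85.5 and 39.9 against 4.11 and 0. *tiam1b*, an activator of Rac, had 270 and 86.8 against 21.4 and 31.7, and *arhgap28* 146 and 206 against 33.7 and 19.4.

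Immune sensors and adaptors made up 6 genes. *nod2* (777696), an intracellular sensor of bacterial cell wall peptides, had the most reads of the group, with 324 normalized read counts in Venus positive library 3 and 58.1 in library 4. In double negative replicates 1 and 2 it had 2 reads and 1 read, which is 1.64 and 1.02 normalized read counts. The ratio of 122 has an interval of 41.4 to 595. *nod2* was the only one of 45 genes of NOD and Toll-like receptor signalling in the table, so its adaptors and relatives were not analysed here.

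*cd79a*, a signalling chain of the B cell receptor, had 117 and 18.2 normalized counts in the Venus positive libraries and 2.46 and 3.07 in the double negative libraries. *znfx1*, a helicase that senses viral RNA, had 99.3 and 43.4 against 7.39 and 4.09. With *si:dkey-188i13.10*, of the interferon-inducible *ifi27* family (47.8 and 12.1, against 0 and 0), these genes and *nod2* were all higher in Venus positive library 3 by more than counting error. The 2 adaptor genes of blood cells were even between libraries. *fybb* (RefSeq *fyb1b*) had 158 and 162 normalized read counts in Venus positive cells, against 14.0 and 15.3 in double negative cells, and *hsh2d* had 162 and 136 against 22.2 and 15.3. None of 41 markers of macrophages and other leukocytes was in the table, so these markers were not analysed here and say nothing for or against leukocytes.

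The 8 metabolic enzymes had the highest length-corrected levels as a group, with a median of 12.7 TPM in Venus positive cells and 1.28 TPM in double negative cells, both the authors' means. *ugt1b5*, a glucuronosyltransferase with reads shared among near-identical genes, had 416 and 272 normalized counts in the Venus positive libraries, against 39.4 and 9.20 in the double negative libraries. *pts* (100073330), which makes the precursor of tetrahydrobiopterin, had 245 and 41.6, against 9.86 and 17.4. *xdh* (560486), xanthine dehydrogenase of purine breakdown, had 310 and 61.6, against 28.8 and 18.4. Library 3 was 5.89 and 5.04 times above library 4, and without library 3 the log2 fold changes were 1.61 and 1.38 and neither gene was called, against 3.39 and 2.97 with all libraries.

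*pts* and *xdh* also serve pigment synthesis in xanthophores, the yellow pigment cells of fish. Of 34 neural crest and pigment cell markers listed, 6 were in the table. *pts* and *xdh* were the 2 that were higher in Venus positive cells, and both were selected for being higher. Of all genes of the table, 64.2% were higher. *sox10*, *pmela*, *pnp4a* and *oca2* were lower. The listed markers outside the table were not analysed here. *sox10* had 56.6 and 59.9 normalized read counts in Venus positive libraries 3 and 4, against 319 and 209 in the double negative libraries, and *pnp4a*, of guanine synthesis in iridophores, had 324 and 114 against 638 and 1150. *pnp4a* was higher in library 3, as *pts* and *xdh* were, whereas *pmela* was higher in library 4, with 561 and 1239. The part of pigment cells in these values was not tested.

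*aadat*, an aminotransferase of tryptophan and lysine breakdown, differed the other way, with 64.1 and 174 normalized counts in the Venus positive libraries, against 20.5 and 5.11 in the double negative libraries. *hsd17b3*, of androgen synthesis, had the fewest reads of the enzymes, with 40.2 and 54.7 against 2.46 and 1.02. *cyp1c2*, a cytochrome P450, had 140 and 108 against 18.9 and 10.2. *cyp1c1*, the next gene of the table in RefSeq's gene order, was higher as well and had more reads, with 1180 and 523 against 46.0 and 55.2 and a log2 fold change of 4.07 beside 3.07 for *cyp1c2*. As the 2 genes are close copies and *cyp1c2* had shared reads, the split between them is uncertain. *gpib*, of glycolysis, had 142 and 200 against 15.6 and 25.6, and *uck1*, of pyrimidine salvage, 162 and 68.5 against 19.7 and 11.2.

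Only 2 genes of RNA binding and transcription were under the limit. *bicc1a* (568201), an RNA-binding protein, had 112 and 151 normalized counts in the Venus positive libraries, against 24.6 and 10.2 in the double negative libraries. Its paralog *bicc1b* had more reads in both groups and was also higher in Venus positive cells, with 1062 and 783 against 77.2 and 254 (log2 fold change 2.48, beside 2.90 for *bicc1a*). *bcl6b*, a zinc finger repressor, had 55.3 and 146 against 4.93 and 16.4. Of 76 transcription factors of cranial mesenchyme and meninges listed, 18 were higher and 1 lower in Venus positive cells, beside 64.2% higher over the table. None of the 18 was under the limit, beside 73 of all 485 higher genes.

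The remaining 23 genes were not placed in a group, most of them because the table gives only an automatic identifier. Of the 73 genes, 66 were found by NCBI gene ID in RefSeq's gene table of another assembly (GRCz12tu, used for names and gene order only), which gave 11 of them another name. The ungrouped genes include the most abundant of all by reads, *LOC100333474*, with 593 and 226 normalized counts in the Venus positive libraries, against 12.3 and 31.7 in the double negative libraries (27.1 and 1.295 TPM, the authors' means). *zgc:136908* had 431 and 286 against 7.39 and 18.4. Its ratio of 28.1 (interval 19.1 to 42.9) was the highest among those of the 73 genes with more than 10 double negative reads. *si:dkey-163m14.2* had 400 and 276 against 4.93 and 32.7, with shared reads. Of the 23 genes, 12 had shared reads, and 19 were higher in library 3 than in library 4.

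The 2 Venus positive libraries were often unequal in these genes. They were over 2-fold apart in 34 of the 73 (46.6%), against 82 of the other 412 (19.9%), and over 4-fold apart in 12 of the 73, against 7 of the 412. Ratios of low counts scatter more widely, and the part of this in the difference was not tested. The counting interval of the ratio lay wholly towards library 3 in 35 (47.9%) and wholly towards library 4 in 12 (16.4%) of the 73 genes. In the 412 these were 269 (65.3%) and 99 (24.0%). By this measure unequal libraries were less frequent in the 73 genes, and such intervals are wider at low counts. The median ratio of library 4 to library 3 was 0.734 in the 73 genes and 0.771 in the other higher genes, so both sets leaned towards library 3.

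By role, the immune genes lay towards library 3 (median ratio of library 4 to library 3 0.346, range 0.156 to 1.02). The matrix genes centred on equality (median 1.01, range 0.331 to 8.97), and the muscle genes included the highest ratio of the 73 (median 0.883, range 0.353 to 14.0). No difference between roles was tested. The 5 largest differences were those of *trim63b* and *itih6*, 14.0 and 8.97 times higher in library 4, and of *opn5*, *LOC100006469* and *si:ch211-217g15.3*, with ratios of library 4 to library 3 of 0.120, 0.151 and 0.151. Of the muscle genes, *trim63b*, *tnni2a.2* and *zgc:86709* were higher in library 4, and *xirp2a*, *chrng* and *synpo2a* were not. Of the summed muscle markers, *actc1a* had 1006 and 1807 normalized counts in libraries 3 and 4, most of the gap between the sums, whereas *ttn.2* had 700.1 and 667. The part of cell composition in this was not tested.

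**Figure D4:**
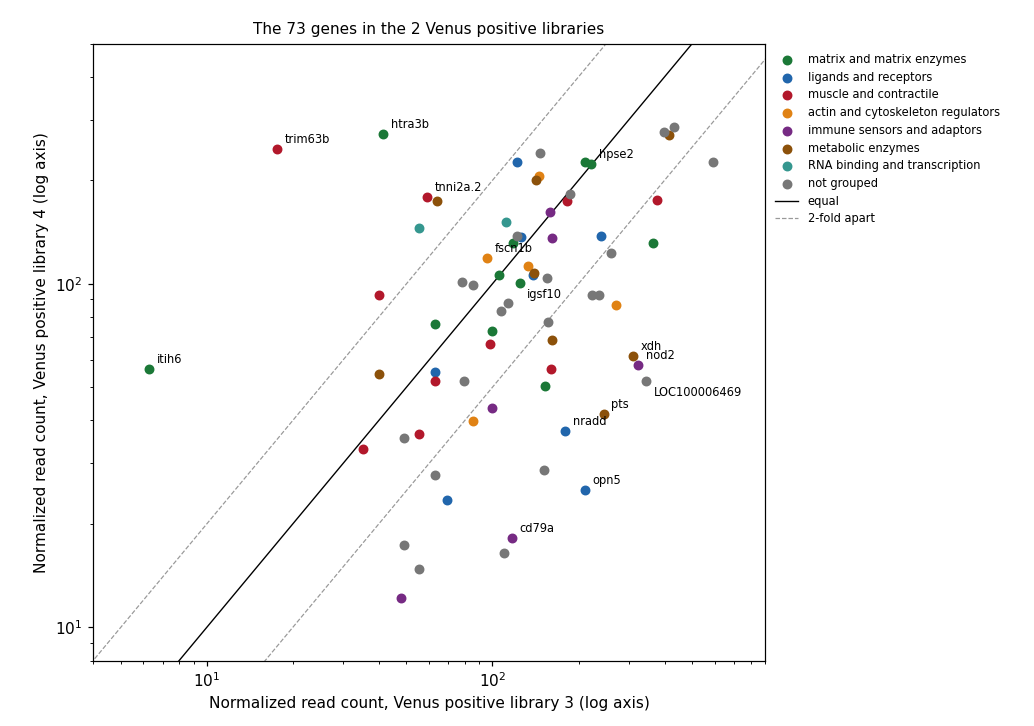
Normalized read counts of the 73 genes in Venus positive library 3 (horizontal, log axis) and library 4 (vertical, log axis), coloured by what the genes encode, with lines of equality and of a 2-fold difference. *trim63b*, *itih6* and *htra3b* lie far above the upper line, *opn5*, *nod2*, *nradd*, *cd79a*, *pts* and *xdh* below the lower line, and *igsf10*, *fscn1b* and *hpse2* near equality.

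None of the listed markers of erythrocytes, epithelia, endothelium or mural cells was among the 73 genes. Markers that were lower, or not in the table, could not be among them, so nothing is read from this absence. Of 27 erythrocyte markers, 19 were in the table and all 19 were lower in Venus positive cells, with summed levels of 6404 and 4473 normalized read counts against 244312 and 447208. Of 63 epidermal and other epithelial markers, 4 were higher and 24 lower. Of 40 endothelial markers only *ramp2* was in the table, at 889 and 783 against 202 and 142, and none of 25 mural cell markers was. *apln* itself, the gene of the reporter, had 11006 and 8899 normalized read counts in Venus positive cells and 651 and 802 in double negative cells, far above the limit of 60 reads.

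Among the 66 genes found in RefSeq's table, no 2 were next to each other in its order of protein-coding genes, but 10 had another gene of the table as their immediate neighbour. Beside *cyp1c1* these were *nkd1* next to *nod2* and *nbeal2* next to *nradd*. *nkd1* was higher in Venus positive cells like its neighbour, with a log2 fold change of 1.80, whereas *nbeal2* was lower, with 1.26 and 0.868 normalized counts in the Venus positive libraries, against 16.4 and 74.6 in the double negative libraries. Of the 10 neighbours, 7 were higher and 3 lower, beside 64.2% higher among all genes of the table. An adjacent gene thus did not always share the direction, and no more is read from this count.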

How the data were processed

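RNA of sorted head cells was amplified with Smart-seq2, 2 libraries of Venus positive, mCherry negative and 2 of double negative cells. The authors filtered reads with SOAPnuke, mapped them to GRCz11 with HISAT2 2.0.4, aligned them to the gene set with Bowtie2 2.4.4, quantified with RSEM 1.2.28 and compared groups with DESeq2 (versions of HISAT2, Bowtie2 and RSEM from the submitters' processing notes). The deposited table of 756 genes holds genes under a Q value of 0.05 only, so sums over it do not give the depth of a library. Its values are the expected counts the authors estimated per gene and library, the authors' normalized signal (the count raised to a whole number and divided by a size factor, double negative columns only), and the authors' mean TPM per group, used without SD or n. The deposited p-values and Q values, which are the authors' own comparison, were used only to recover that 23016 genes were adjusted over. The deposited fold changes, 18 ratio columns between single libraries and 10 per-library columns, which the labels do not number in the same way, were not used.

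Expected counts were raised to whole numbers and divided by the authors' size factors. These were 0.796 and 1.15 for Venus positive libraries 3 and 4, worked out from 7 genes in the study's source data, and 1.22 and 0.978 for double negative replicates 1 and 2, worked out from the table. The quasi-likelihood test of edgeR 4.0.16 (under R 4.3.3), two-sided and with group as the only term, was adjusted by Benjamini-Hochberg over 754 genes, those that reached 10 counts in 2 or more libraries. The biological coefficient of variation was 0.417, from genes that had all passed a test on these libraries, so it may be too small. Ratios between groups are of reads summed over a group's libraries and divided by the sum of its size factors. They have exact Clopper-Pearson intervals (scipy 1.17.1). DESeq2 1.42.0, other scalings, no filter, other rounding and leaving out each library were tried.

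The genes and the 27 lists used for context were chosen with earlier results of these data known, and roles were assigned after the table was seen. Genes named with values were the 4 examples of the selection, the 10 highest in Venus positive cells, the 10 largest ratios, all with 0 double negative reads, the 3 on either side of the limit, the 5 with the most unequal Venus positive libraries, and members of a list or of a paralog pair in the table, 42 in all. Others were named by role after their values were seen. The values of 1 of the 73 genes are not reported here. Protein and promoter sequences were not used here.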

Additional observations from a re-analysis of the deposited data

How the results depend on the processing

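The number of genes called in the whole table was 754 by edgeR, 342 with RLE scaling and 354 with TMM scaling. It was 418 when the adjustment was widened to the number of genes the authors tested. Genes outside the table were then counted as not different, without a fit. RLE and TMM scaling moved the median log2 fold change of all genes by -1.85 and -1.75. Of the 72 tested genes of the selection, 25 were called higher with RLE scaling, 27 with TMM scaling and 37 with the widened adjustment. Their median log2 fold change of 3.70 became 1.84 with RLE and 1.90 with TMM scaling. Leaving out 1 library gave 42 to 65 called genes. The lowest counts, 42 and 44, came without Venus positive library 3 and without Venus positive library 4, when only 46 of the genes could pass the filter, and the lone library was assumed to vary like the other group. With a limit of 120 reads in place of 60 the selection held 113 genes. A limit of 30 reads gave 49. Replacing the limit by a double negative mean below 1 TPM, an alternative chosen after seeing the data, gave 70 genes, of which 55 were shared and 18 of the original genes were lost. Keeping only whole counts, chosen likewise, left 58. The median level in Venus positive cells was 119 and lay between 92.8 and 124 without 1 of the Venus positive libraries. Of 41 named genes fitted, 20 lost their call with RLE scaling, 20 with TMM scaling and 15 with the widened adjustment. Without double negative replicate 2, *arhgap28*, *bicc1a*, *gene-adam12-2* and *zgc:153031* lost theirs. No direction of these 41 was reversed where they were fitted, and DESeq2, no filter and other rounding changed no call of theirs. Without Venus positive library 3, or without library 4, only 25 of the 41 were fitted. The 4 examples *nod2*, *nradd*, *fscn1b* and *igsf10* were not among the 25. No paired analysis was possible because the Venus positive columns carry the numbers 3 and 4, which match no replicate number of the double negative libraries. With 2 libraries per group and no molecular identifiers, genes with fewer than 4 double negative reads have ratios known only within wide limits.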

Other observations

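The genes left out by name would have extended the selection. *itga9*, an integrin chain, had 460 and 182 normalized counts in Venus positive libraries 3 and 4, against 14.8 and 28.6 in the double negative libraries. The related chain *itga4* was more even, with 199 and 141 against 19.7 and 18.4. *ttn.1*, one of the titin genes of the sarcomere, had 195 and 224, against 4.93 and 11.2, and the ratio was 27.4 (interval 16.9 to 47.5), although its counts were not whole and *ttn.2*, the other titin gene, can share reads with it. *slc2a11b*, a sugar transporter gene known from pigment cells of fish, had 607 in library 3 and 75.5 in library 4, against 6.57 and 49.1, so that library 4 lay less than 2-fold above double negative replicate 2. *itga9*, *itga4*, *ttn.1* and *ttn.2* were also the 4 higher genes outside the selection with under 0.5 TPM in double negative cells.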
